A study of Mus musculus with 18 samples.

Results

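The 2 arms of the miR-142 hairpin, miR-142-5p (mmu-miR-142-5p in the files) and miR-142-3p (mmu-miR-142-3p), were read on arrays of mature miRNAs from splenic B cells. The arms were chosen by their names among the 1265 mouse miRNA probes of each array, and each arm has 1 spot per array. The study set mice that carry the miR-17~92 miRNA cluster as a transgene against wild-type mice (WT). The transgene was driven by the Eμ enhancer and the immunoglobulin heavy-chain promoter, which direct expression to B cells, and came as founder line 9 (Tg9) and founder line 79 (Tg79). The arrays number 3 WT, 3 Tg9 and 3 Tg79. All were made from B cells taken from spleen with magnetic beads, and the labels give no strain, age or treatment beyond the transgene. Nothing in the labels says how separate the samples of a group were, so p-values measure the spread between these samples.

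The miR-142 gene lies outside the transgene and is known as a miRNA of blood cells, expressed through the lineages of white cells and at very low levels in most other tissues. Its hairpin is unusual in that both arms are loaded into Argonaute in these cells, so that 1 precursor supplies regulators of different target sets. A miRNA finds its targets mainly by pairing of its seed, bases 2 to 8, with the messenger RNA. Mice without miR-142 have disturbed B cell, T cell and myeloid lineages, and the human miR-142 seed is recurrently mutated in leukaemia and lymphoma.

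The sequences below, from RefSeq on GRCm38.p6, show why the arms are separate readouts of 1 gene. In the hairpin the capitals mark the mature arms, and in the mature miRNAs they mark the seed. RefSeq now names the arms miR-142a.
Mir142 hairpin: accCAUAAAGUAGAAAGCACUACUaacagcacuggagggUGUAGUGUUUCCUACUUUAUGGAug
miR-142-5p: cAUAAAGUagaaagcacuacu
miR-142-3p: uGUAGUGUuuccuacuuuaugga
miR-142b: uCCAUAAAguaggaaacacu

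The hairpin is 64 bases long and lies at chr11:87756864-87756927 on the plus strand. The 5p arm has 21 bases (chr11:87756867-87756887) and the 3p arm 23 bases (chr11:87756903-87756925), with 15 bases between them. Their seeds differ, and 0 other mature mouse miRNAs in RefSeq's list carry either seed. The hairpin lies wholly within the antisense gene Mir142b (chr11:87756841-87756955, minus strand), whose mature miR-142b covers 20 bases opposite the 3p arm. MiR-142b was not analysed here.

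The transgene's own product, as the mean log2 level over 11 tested arms of the miR-17~92 cluster, checks the labels. It read 7.68 to 7.98 in WT and 9.35 to 10.25 in Tg79. In Tg9 it read 9.31 on the first array but 7.99 and 8.02 on the arrays labelled 2 and 3, next to WT. Testing required only 3 arrays above the background limit defined below, so a faint arm could enter this mean through Tg79 alone. MiR-92a-1-5p cleared that limit on 3 and miR-19b-1-5p on 5. All 11 arms, bright ones such as miR-17-5p included, read higher on every Tg79 array than on every WT array (13% of all miRNAs). In Tg9 this held only at miR-17-5p (lowest Tg9 array 10.598, highest WT array 10.57), miR-20a-5p (10.395 and 10.256) and miR-20a-3p (6.374 and 6.356). Such narrow margins do not check the Tg9 labels. The Tg9 arrays 2 and 3 are used as labelled, and results without them are given further on.

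Both arms were bright in every sample. The limit of background was taken on each array as the 95th percentile of its 24 negative control spots. Scanner intensity, the median pixel brightness of a spot in arbitrary units, lay 10.96 to 86.8 times above that limit for miR-142-5p and 6.87 to 69.55 times above it for miR-142-3p. A leukocyte miRNA was therefore measured well clear of background in all 9 samples. The arrays hold no cells that should lack miR-142, so its restriction to leukocytes could not be examined.

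On the linear scale miR-142-5p read 2985, 4634 and 4364 on WT1, WT2 and WT3, 2593, 3105 and 1645 on the Tg9 arrays 1 to 3, and 832, 1086 and 2532 on the Tg79 arrays 1 to 3. The 3 Tg79 arrays lay below all WT arrays, while the second Tg9 array passed WT1. MiR-142-3p read 1921, 3712 and 2816 in WT, 1717, 2187 and 1158 in Tg9, and 522, 899 and 1182 in Tg79. Here too the Tg79 arrays lay below all WT arrays, and the second Tg9 array lay above WT1. These intensities carry each array's overall brightness, so the comparisons below use normalized log2 intensity.

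**Figure D1:**
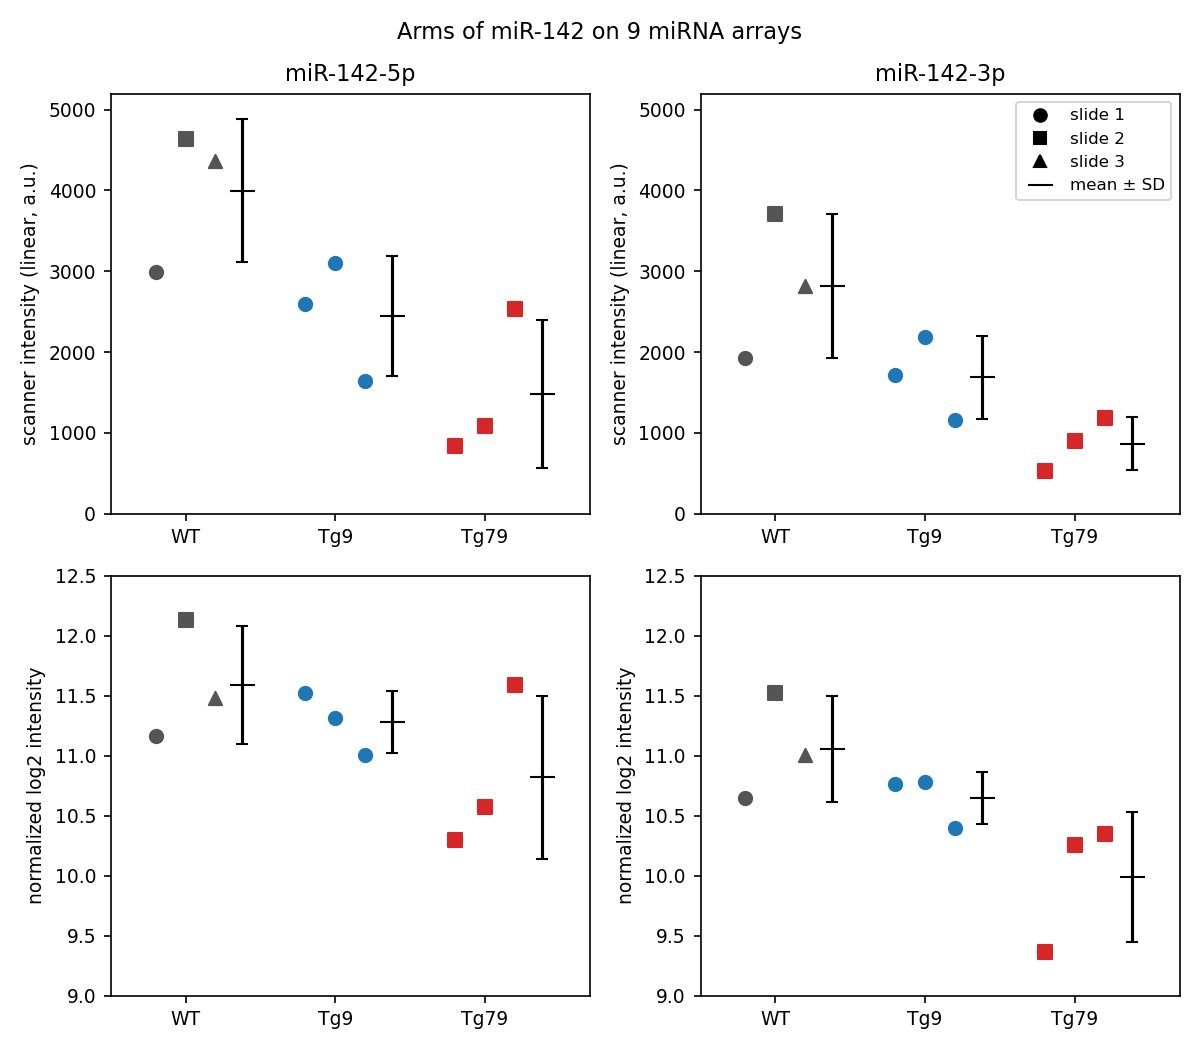
Scanner intensity (top, arbitrary units) and normalized log2 intensity (bottom) of miR-142-5p (left) and miR-142-3p (right) on 3 WT, 3 Tg9 and 3 Tg79 arrays. Points are arrays, shapes are slides and bars are mean ± SD. After normalization the Tg79 arrays of miR-142-3p stay below all WT arrays, while those of miR-142-5p overlap WT.

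After normalization the level of miR-142-5p was 11.16, 12.13 and 11.48 in WT, 11.52, 11.32 and 11.003 in Tg9, and 10.30, 10.57 and 11.59 in Tg79. The third Tg79 array lay above 2 of the 3 WT arrays, so the groups overlapped. The level of miR-142-3p was 10.64, 11.52 and 11.003 in WT, 10.76, 10.78 and 10.39 in Tg9, and 9.36, 10.26 and 10.34 in Tg79. Every Tg79 array lay below every WT array, and also below every Tg9 array, whereas Tg9 and WT overlapped.

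By group mean the order was WT, then Tg9, then Tg79 for both arms. MiR-142-5p averaged 11.59 ± 0.49, 11.28 ± 0.26 and 10.82 ± 0.68 in turn (SD, n = 3). MiR-142-3p averaged 11.06 ± 0.44, 10.65 ± 0.22 and 9.99 ± 0.54 (SD, n = 3). No neighbours in this order passed the test, as given below. Levels of the 5p and the 3p spot were not set against each other, because spots of different sequence bind RNA with different efficiency.

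The arms were tested with limma on all 501 miRNAs above the limit on at least 3 arrays, in a two-sided test. P-values were adjusted over those 501 by the Benjamini-Hochberg method, and a miRNA was called where the adjusted value fell below 0.05. In line Tg79 both arms had a lower mean than in WT, and neither was called. The difference was -1.07 ± 0.31 log2 for miR-142-3p (SE, limma adjusted p = 0.0911), a level 2.09-fold lower. Its 95% interval of -1.79 to -0.34 lies below 0, but that interval is not adjusted for the number of miRNAs tested. For miR-142-5p the difference was -0.77 ± 0.37 (SE, limma adjusted p = 0.248), 1.71-fold lower, with an interval of -1.64 to 0.10. It was -0.50 without WT2 and -0.51 without the first Tg79 array. Fewer cells that carry a miRNA and less of it per cell cannot be told apart in bulk RNA.

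Of all 501 miRNAs 23 were called in this comparison, or 4.59%, of which 5 were lower (0.998%). Without WT1, WT3 or the second Tg79 array the count of calls was 0, and without the third Tg9 array 6, while miR-142-3p stayed uncalled with any 1 array left out. MiR-142-3p is 1 of 82 miRNAs (16.4%) whose 3 Tg79 arrays all lay below all 3 WT arrays, so its lack of overlap is shared by many miRNAs. The median difference over all 501 miRNAs was -0.04 log2, and relative to it miR-142-3p stood at -1.03 and miR-142-5p at -0.73. Ordered by difference, without regard to SE, miR-142-3p was the 21st lowest and miR-142-5p the 31st lowest.

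In line Tg9 both arms lay closer to WT. MiR-142-3p differed by -0.41 ± 0.31 log2 (SE, limma adjusted p = 0.99, interval -1.14 to 0.32). MiR-142-5p differed by -0.31 ± 0.37 (SE, limma adjusted p = 0.99, interval -1.18 to 0.56). Limma called 0 of 501 miRNAs here (0%), with 3 (0.599%) at an unadjusted p under 0.05. By difference miR-142-3p was the 14th lowest of 501 and miR-142-5p the 26th lowest (limma unadjusted p = 0.227 and 0.432). That order takes no account of each miRNA's SE. Both lines are set against the same 3 WT arrays, so the ranks in Tg9 are not a separate repeat of those in Tg79. Relative to the median of all miRNAs the arms stood at -0.40 and -0.30. Without WT2 the differences were -0.18 and -0.041, without WT1 -0.62 and -0.52, and that of miR-142-5p without the third Tg9 array -0.17. The intervals leave room for a level about as low as in Tg79 and for one above WT.

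For both lines together against WT the differences were -0.74 ± 0.27 log2 for miR-142-3p and -0.54 ± 0.32 for miR-142-5p (SE, limma adjusted p = 0.299 and 0.489). Without WT2 miR-142-5p differed by -0.27. Limma called 0 of 501 miRNAs (0%), with 67 (13.4%) at an unadjusted p under 0.05. Tested directly, Tg79 lay below Tg9 by -0.66 ± 0.31 for miR-142-3p (SE, limma adjusted p = 0.333) and by -0.46 ± 0.37 for miR-142-5p (adjusted p = 0.578). Without the first Tg79 array these were -0.34 and -0.20, and without the third the miR-142-5p difference was -0.84. Neither difference between the lines was called, and 0 of 501 miRNAs were (0%), with 77 (15.4%) at an unadjusted p under 0.05. The 3 Tg79 arrays below all 3 Tg9 arrays put miR-142-3p among 52 miRNAs (10.4%).

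**Figure D2:**
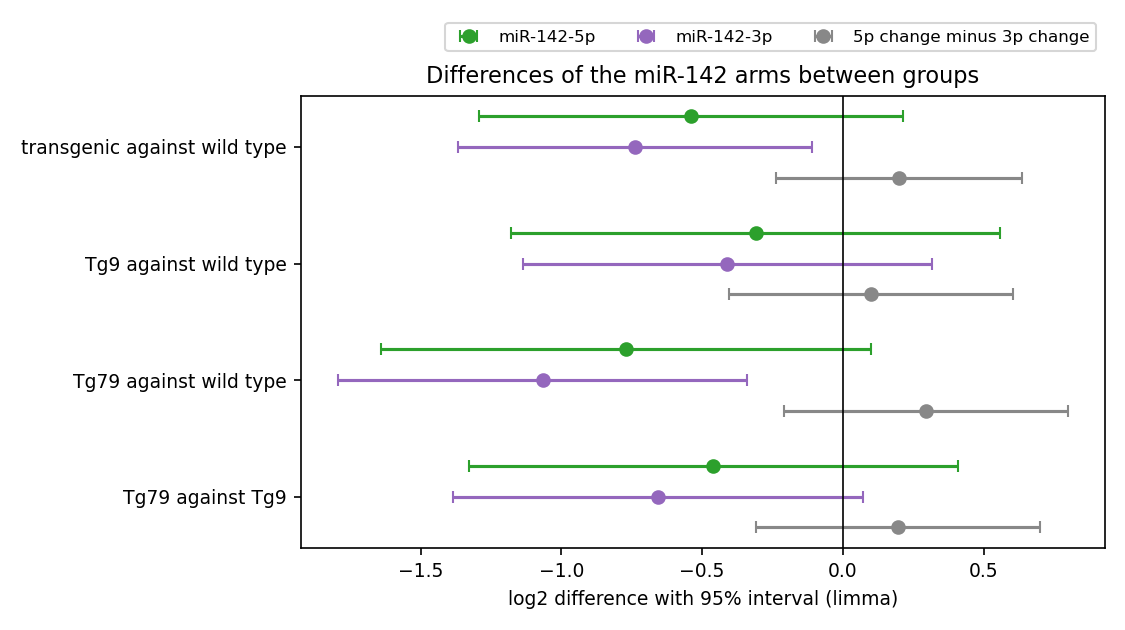
Log2 difference of miR-142-5p, of miR-142-3p and of the 5p change minus the 3p change in 4 comparisons, as limma estimates with unadjusted 95% intervals. Every arm's estimate is below 0, and the interval stays below 0 only for miR-142-3p in Tg79 (-1.79 to -0.34) and in both lines together (-1.37 to -0.11).

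No label names a slide, so the slides here are inferred. A code that the deposited files share puts the samples on 3 slides. The 3 Tg9 arrays share a slide with WT1, the 3 Tg79 arrays share one with WT2, and WT3 is alone. WT1 was the lowest WT array and WT2 the highest for both arms, so the slide changes the picture of each line. Within its slide the mean of Tg9 did not lie below WT1, although the third Tg9 array did for both arms. The 3 Tg9 arrays differed from WT1 by -0.16 to 0.36 log2 for miR-142-5p (mean 0.12) and by -0.25 to 0.14 for miR-142-3p (mean 0.00042).

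On the other shared slide Tg79 lay lower than WT2 throughout. The differences were -1.83 to -0.54 for miR-142-5p (mean -1.31) and -2.15 to -1.18 for miR-142-3p (mean -1.53). Each of these rests on 1 WT array. A limma fit with slide as a factor returns these same within-slide means in this layout, so it adds no separate support. It gave the Tg79 difference as -1.53 ± 0.42 (SE, limma adjusted p = 0.53) for miR-142-3p and -1.31 ± 0.51 (adjusted p = 0.53) for miR-142-5p. The Tg9 differences turned to 0.00042 for miR-142-3p and 0.12 for miR-142-5p. Between the lines, each of which has a slide of its own, line and slide can be parted only through the single WT arrays.

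The comparison of the arms asks whether the hairpin's products changed unequally. For each array the normalized log2 level of 5p minus that of 3p was formed. Its size depends on the spots, but its change between groups can be tested. It was 0.52, 0.61 and 0.48 in WT, 0.76, 0.54 and 0.61 in Tg9, and 0.93, 0.31 and 1.24 in Tg79. The WT and Tg9 arrays lay close together and overlapped. The Tg79 arrays spread on both sides of them, with the second the lowest of all 9 and the third the highest.

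The mean arm difference was 0.53 ± 0.07 in WT, 0.63 ± 0.11 in Tg9 and 0.83 ± 0.47 in Tg79 (SD, n = 3). Limma, fitted to all 83 hairpins with both arms tested, gave a change of 0.30 ± 0.22 in Tg79 against WT (SE, adjusted p = 0.432, interval -0.21 to 0.80). Without the third Tg79 array the change was 0.090, and without the second it was 0.55 (adjusted p = 0.0992). Other normalizations gave smaller changes in Tg79 against WT. They were 0.15 with scaling to each array's 75th percentile, 0.16 with cyclic loess and 0.16 with the authors' deposited values. In Tg9 against WT the change was 0.10 ± 0.22 (adjusted p = 0.951, interval -0.40 to 0.60). For both lines together it was 0.20 ± 0.19 (adjusted p = 0.634) and for Tg79 against Tg9 0.20 ± 0.22 (adjusted p = 0.60). Those values were 0.095 and -0.010 without the third Tg79 array, and 0.33 and 0.45 without the second. The Tg9 change was 0.038 without the first Tg9 array. An unequal change of the arms was not detected, and the intervals do not show that the arms changed alike.

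Among the 83 hairpins the size of this change in Tg79 against WT was ordinary, with 43 hairpins changing less. The median size was 0.26 log2. Limma called 2 of 83 hairpins there (2.41%), and 0 in each of the other 3 comparisons (0%), with 12 hairpins (14.5%) at an unadjusted p under 0.05 for both lines together, 1 (1.2%) for Tg9 and 14 (16.9%) between the lines. The 3 hairpins whose arm difference changed most for both lines together were miR-92b (-1.55), miR-5621 (-1.19) and miR-18a (0.99), the last a hairpin of the transgene. MiR-92b and miR-18a were the 2 called in Tg79. MiR-92b-5p itself differed by -0.06 for both lines together, so the change lay with the 3p spot, and what that spot bound was not tested. MiR-18a-3p was above the limit on 7 arrays and read 5.91 to 6.05 in WT, so its own change was measured near background.

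**Figure D3:**
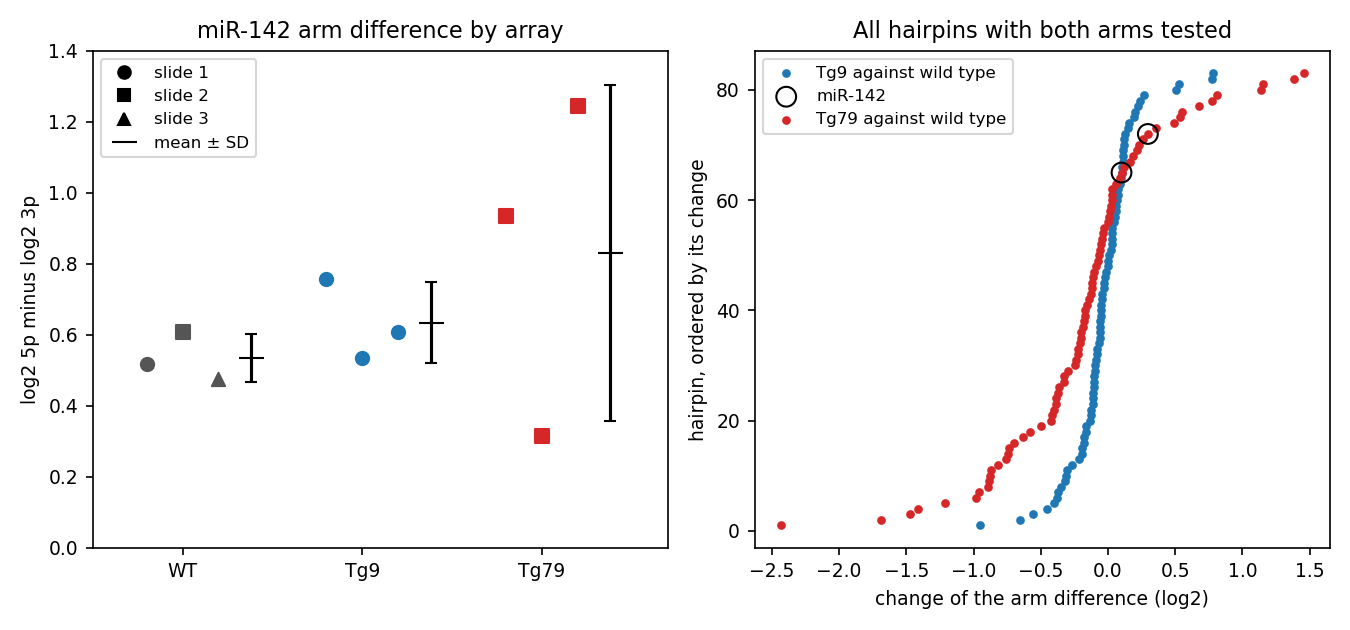
Left, normalized log2 5p minus normalized log2 3p of miR-142 on each array, with shapes for slides and bars for mean ± SD. Right, the change of that value against WT for all 83 hairpins in order, in Tg9 and in Tg79, with miR-142 circled at 0.10 and 0.30.

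The arms followed each other over the arrays. Pearson's r between them was 0.88 over 9 arrays, and 0.83 after each group's mean was taken off. This is a description of arrays that share groups and slides. Of the other 281 miRNAs above the limit on all 9 arrays, the 3 most like miR-142-3p were miR-29b-3p (r = 0.94), miR-140-5p (r = 0.89) and miR-142-5p itself. Those most like miR-142-5p were miR-3971 (r = 0.92), miR-362-3p (r = 0.91) and miR-140-5p (r = 0.90), with miR-142-3p at place 5 of 281.

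MiR-29b-3p belongs to the miR-29 family, known for regulating collagen and DNA methyltransferase messages. Its RefSeq sequence has another seed, in capitals, than either arm of miR-142.
miR-29b-3p: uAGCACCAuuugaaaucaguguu

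The level of miR-29b-3p ran from 11.10 to 11.83 in WT, from 10.78 to 11.74 in Tg9 and from 9.10 to 10.57 in Tg79. Its Tg79 arrays lay below all WT arrays (16.4% of all miRNAs) and below all Tg9 arrays (10.4%), as for miR-142-3p. The miRNAs here were picked by likeness to an arm over these same arrays, so a shared pattern follows from that choice. For miR-29b-3p the difference from WT was -1.29 ± 0.45 log2 in Tg79 (SE, limma adjusted p = 0.133) and -0.16 ± 0.45 in Tg9 (adjusted p = 0.99). MiR-140-5p, best known from cartilage, differed by -0.86 ± 0.33 in Tg79 (SE, limma adjusted p = 0.173) and by -0.12 ± 0.33 in Tg9. Neither was called.

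Beside the arms stand 11 other miRNAs known from leukocytes, all above the limit on all 9 arrays. In Tg79 against WT 1 of the 11 was called, miR-181b-5p, which was higher (4.59% of all miRNAs were called). As few as 0 were called lower (0.998% of all miRNAs), while 7 had a difference below 0. The median difference was -0.75 log2 in these 11, against -0.04 over all 501. At 4 of them the Tg79 arrays lay below all WT arrays (16.4% of all miRNAs) and at 3 above (13%). The value of miR-142-5p in Tg79, -0.77, was thus close to the list's median, and that of miR-142-3p, -1.07, below it.

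Larger differences below 0 in Tg79 were measured at other miRNAs of the list. MiR-342-3p, read from an intron of the Evl gene, differed by -1.67 ± 0.48 log2 (SE, limma adjusted p = 0.0911). MiR-150-5p, which mature lymphocytes carry and which targets Myb, differed by -2.001 ± 0.78 (adjusted p = 0.175). MiR-29a-3p differed by -1.62 ± 0.54, miR-146a-5p, a brake on NF-κB signalling, by -1.42 ± 0.56, and miR-16-5p, which targets Bcl2, by -1.10 ± 0.52. MiR-15a-5p (-0.75) and let-7g-5p (-0.56) were the others below 0.

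The list also held miRNAs on the other side. MiR-181b-5p was 1.14 ± 0.22 log2 higher in Tg79 (SE, limma adjusted p = 0.0387). MiR-155-5p, induced in activated B cells, differed by 1.52 ± 0.61, miR-21a-5p, often raised in lymphoma, by 1.17 ± 0.34, and miR-181a-5p by 0.98 ± 0.37, none called. In Tg9 0 of the 11 were called (0% of all miRNAs), 6 lay below 0 and the median was -0.18 against -0.01 over all miRNAs. In Tg79 the listed leukocyte miRNAs thus lay on both sides of WT.

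**Figure D4:**
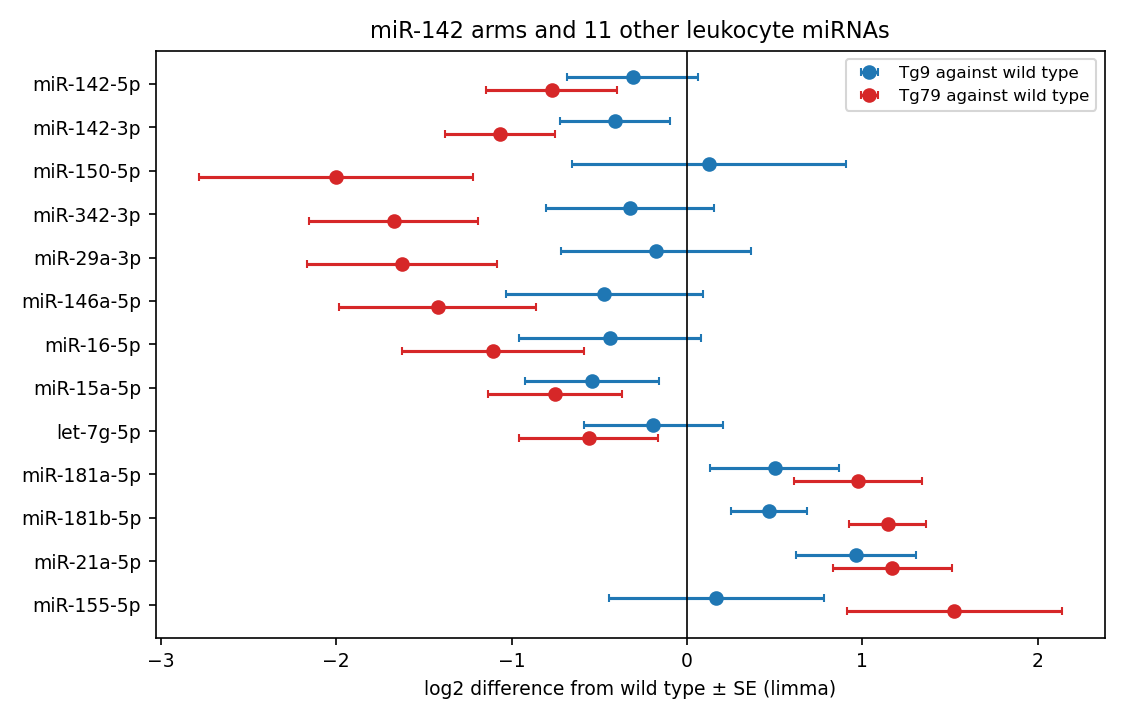
Log2 difference from WT of the miR-142 arms and 11 other leukocyte miRNAs in Tg9 and Tg79, as limma estimates ± SE. In Tg79 the arms of miR-142 (-0.77 and -1.07) lie among 7 listed miRNAs below 0, with 4 others above 0, of which miR-181b-5p was called.

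Of 12 miRNAs of myeloid, red, endothelial, stromal and epithelial cells 11 were on the array and 7 were tested, and 0 were called in any comparison (4.59% of all miRNAs in Tg79 against WT). Their mean level ran from 6.44 to 6.53 in WT, from 6.46 to 6.81 in Tg9 and from 6.21 to 6.72 in Tg79. Faint members limit what this mean can show. MiR-143-3p was above the limit on 7 arrays, and miR-145a-5p and miR-125b-5p on 5. MiR-451a, the tested red-cell marker, read 6.97 to 7.65 in WT, 7.66 to 8.05 in Tg9 and 6.75 to 8.03 in Tg79. MiR-223-3p, the myeloid marker above the limit on all 9 arrays, read 7.16 to 7.64 in WT, 6.57 to 9.10 in Tg9 and 6.21 to 6.69 in Tg79. MiR-223-5p, miR-144-3p and miR-205-5p were above the limit on 0 arrays. The difference of miR-223-3p in Tg79 against WT was -0.98 ± 0.56 log2 (SE, limma adjusted p = 0.32). Of the 7 tested, 2 lay below 0, miR-223-3p and miR-200c-3p (-0.48), and both had all Tg79 arrays below all WT arrays (16.4% of all miRNAs). The other 5 lay above 0, from 0.18 for miR-125b-5p to 0.43 for miR-126-3p, the latter with all Tg79 arrays above all WT arrays (13%). The median of the 7 was 0.20. Myeloid cells are known to carry miR-142 too, and the part of miR-223-3p's cells in the arms' levels was not tested.

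Array-wide measures moved with the lines as well. Between 35.1% and 40.8% of probes passed the limit in WT, between 33.0% and 42.6% in Tg9 and between 24.4% and 32.3% in Tg79. The part of this in the arms' lower means in Tg79 was not tested. Without the arrays labelled Tg9 2 and 3, whose cluster level was next to WT, the lone Tg9 array, taken to vary like the other groups, differed from WT by -0.29 log2 for miR-142-3p and by -0.070 for miR-142-5p. For both lines together the differences were then -0.68 and -0.42 (limma adjusted p = 0.433 and 0.652).

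Whether the arms were called in Tg79 differed between ways of processing the arrays, and the cause was not tested. In the authors' deposited table miR-142-5p read 11.94, 12.15 and 11.46 in WT, 11.55, 11.90 and 11.47 in Tg9, and 10.004, 10.38 and 10.28 in Tg79. There the third Tg79 array lay with the other two, below all WT arrays. In the scanner intensities it lay below all WT arrays too, but at 2532 against 832 and 1086 on the other Tg79 arrays. The quantile-normalized level above (11.59) put it within WT. In the authors' deposited table miR-142-3p ran from 10.85 to 11.82 in WT, from 10.91 to 11.37 in Tg9 and from 9.23 to 10.09 in Tg79. Fitted with limma, the values of the authors' deposited table gave -1.79 for miR-142-3p (adjusted p = 0.0143) and -1.63 for miR-142-5p (adjusted p = 0.02), both called, in Tg79 against WT. In the authors' deposited table the median of all miRNAs tested there was itself -0.84, and relative to it the arms stood at -0.95 and -0.79. Scaled to each array's 75th percentile, which left the median of all miRNAs at 0.48, miR-142-3p was called at -0.96 (limma adjusted p = 0.0474), and miR-142-5p at -0.81 was not (adjusted p = 0.0806). Relative to the median those are -1.44 and -1.28. With the percentile taken over all probes, a setting chosen after seeing the data, neither was called, at -1.48 and -1.32 (limma adjusted p = 0.0718 and 0.106). Cyclic loess called neither (-0.90 and -0.74, limma adjusted p = 0.167 and 0.244).

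Subtracting the deposited background column gave another picture. That column rises with the spot (r 0.982 to 0.995 over miRNA spots of an array), and for miR-142-5p it exceeds the spot itself on 2 arrays, at 2712 against 2593 on the first Tg9 array and 841 against 832 on the first Tg79 array. For miR-142-3p it does so on 2 arrays as well, at 2247 against 1921 on WT1 and 1727 against 1717 on the first Tg9 array. With it the Tg79 difference of miR-142-3p turned to 0.65 ± 1.34 log2 (SE), and that of miR-142-5p shrank to -0.34 ± 0.64.

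**Figure D5:**
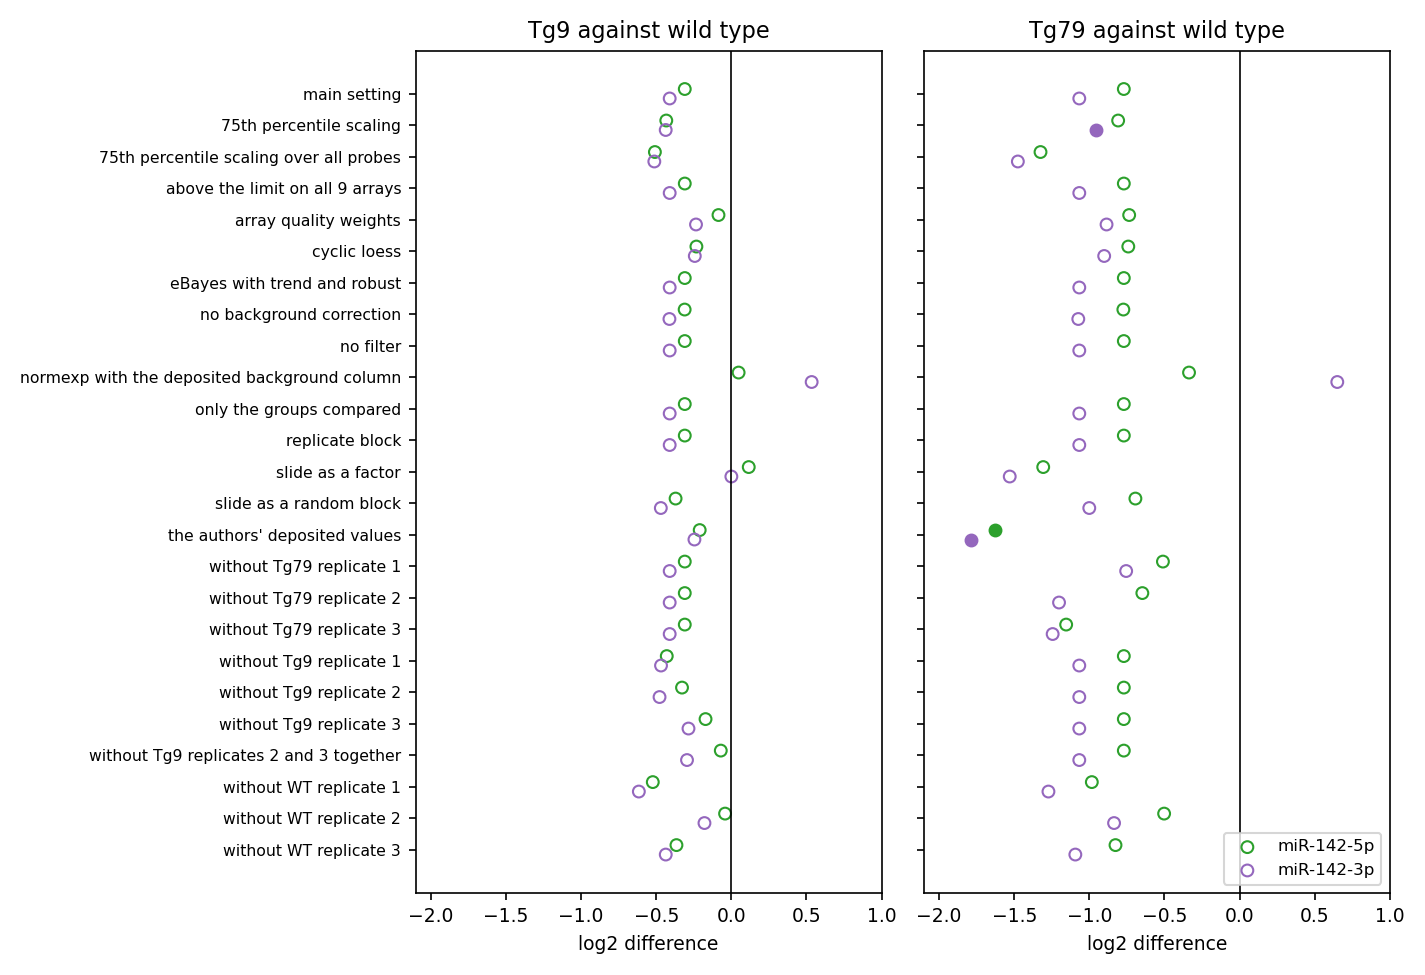
Log2 difference from WT of miR-142-5p and miR-142-3p in Tg9 (left) and Tg79 (right) under each processing setting, with filled points for a limma adjusted p under 0.05. In Tg79 the points lie below 0 except miR-142-3p with the deposited background column (0.65), and 3 points are filled.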

How the data were processed

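Files of 9 miRNA arrays were used, told apart from 9 mRNA arrays by their probes. The mRNA arrays were not used here, because the files do not pair their identifiers with gene names. Per the labels, RNA was labelled with Cy5. Each deposited file gives, per spot, the median intensity of its pixels and a background intensity, neither normalized. The authors' deposited table of processed log2 values was used as an alternative. No source used here says how the authors made it. Its identifiers were moved by 5 rows, after which Spearman's rho with the scanner values, across probes, was 1 (0.142 to 0.171 as given).

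Intensities were corrected with normexp (offset 50, foreground alone), taken to log2 and quantile normalized in R 4.3.3 with limma 3.58.1. Of 1265 miRNA probes 501 were tested. One model held a mean for each group. The arm difference was fitted the same way over 83 hairpins, and both fits were checked on simulated data. Replicate numbers were not used to pair samples in the main fit. Same-numbered arrays deviated from their group means with r of -0.43 to 0.38. With 3 arrays per group these values cannot settle whether samples were paired. The arms, the lists and the tests were chosen with earlier results of these data known. The named miRNAs are the arms, the 11 of the leukocyte list, the cell markers and the 3 probes most like each arm. The 3 hairpins whose arm difference changed most are named too. Precision is limited by how few arrays there are.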

Additional observations from a re-analysis of the deposited data

Results flagged for a closer look

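Among the 6 transgenic arrays, miR-142-3p on the first Tg79 array, at 9.36 log2, stood apart from the other 5. The next array was at 10.26, and the gap made up 0.631 of the whole range, against a critical value of 0.625. The 6 arrays come from both founder lines, and chance marks about 5% of groups, of which 3 were looked at. Without this array the Tg79 difference from WT was -0.75 log2 for miR-142-3p.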

How the results depend on the processing

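Alternatives were 15 settings and leaving out each of 9 arrays. No alternative called an arm in Tg9 against WT, in both lines together or between the lines, or called the arm difference. In Tg79 against WT, miR-142-3p was called at -0.96 under 75th percentile scaling, and the authors' values gave calls of both arms, at -1.79 for miR-142-3p and -1.63 for miR-142-5p. Subtracting the background column, whose values rise with the spot, turned these: miR-142-3p to 0.59 for both lines together, 0.53 in Tg9, 0.65 in Tg79 and 0.12 for Tg79 against Tg9; miR-142-5p to 0.049 in Tg9; and the arm difference to -0.74, -0.49, -0.99 and -0.50 in the same order. With slide as a factor the Tg9 differences turned to 0.12 (5p) and 0.00042 (3p), which are the within-slide means given above. With 1 array left out no arm was called; miR-142-3p in Tg79 lay between -1.27 and -0.75, miR-142-5p there between -1.15 and -0.50, and the arm difference of Tg79 against Tg9 between -0.010 and 0.45. The cause of these changes was not tested.

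The replicate block changed no call of an arm: miR-142-3p in Tg79 kept -1.07 with a limma adjusted p of 0.119, against 0.0911 without the block, and the arm difference 0.30 with 0.47. Counts of all miRNAs called moved more. In Tg79 against WT, 23 became 185 with 75th percentile scaling, 39 with that scaling over all probes (chosen after seeing the data) or with slide as a random block, 79 with array weights, 108 with the authors' values, and 0 with no filter, the background column, the replicate block or slide as a factor. With 1 array left out it ranged from 0 to 29, with 0 without WT1, WT3 or the second Tg79 array, 6 without the third Tg9 array, 9 without WT2 and 11 without the first Tg79 array. For both lines together, 0 became 35 with array weights, 8 without the Tg9 arrays 2 and 3, and 0 to 4 with 1 array left out. For Tg9, 0 became 3 without its arrays 2 and 3. For Tg79 against Tg9, 0 became 9 with 75th percentile scaling, 34 with slide as a random block, whose estimated correlation was negative (-0.14), 23 with the authors' values, 1 without the Tg9 arrays 2 and 3, and 0 to 8 with 1 array left out. Both arms were above the negative-control limit on all 9 arrays.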
